A study of Ovis aries with 15 samples.

Results

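Sodium/proton exchangers of the SLC9 family were followed in the ruminal epithelium of Hu lambs, all male and 6 months old. The 5 genes were SLC9A2, SLC9A3, SLC9A7, SLC9A8 and SLC9A9, taken by gene name from tables of 19304 genes, and each name was found once. The library groups were HP, HG and CON, with 5 libraries in each, sequenced from Trizol-extracted total RNA of frozen epithelium. The series title names pelleted and non-pelleted high-grain feeding of the lambs, so HP was read as the pelleted high-grain diet, HG as the non-pelleted one and CON as the control. No source used here gives the composition of the diets or the length of feeding. Labels did not state that each library came from its own lamb, so the p-values measure the spread between these libraries, which may be partly technical. Values were FPKM (fragment counts corrected for the length of the transcript and for the size of the library), so levels of different genes can be set side by side, and the depth of each library was unknown.

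Sodium/proton exchangers swap a sodium ion for a proton across a membrane. At the cell surface they take up sodium and export acid, and in Golgi and endosomes they set the pH of the lumen. The rumen lining is a keratinized, stratified epithelium that absorbs sodium and the short-chain fatty acids of fermentation, and exchange of sodium for protons is one of its known uptake routes. SLC9A3 (NHE3) is best known as the apical exchanger of intestine and kidney, and SLC9A2 (NHE2) as a second plasma membrane exchanger of epithelia. SLC9A8 (NHE8) is found in Golgi membranes and at apical surfaces, SLC9A9 (NHE9) in endosomes and SLC9A7 (NHE7) in the trans-Golgi network.

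The libraries carried the defining keratins of a stratified epithelium, with KRT5 at 656.3 to 1798 FPKM in HP, 1055 to 2150 FPKM in HG and 1133 to 2382 FPKM in CON. Several libraries stood apart. CON1 and CON3 had the lowest median FPKM over all genes (1.98 and 1.52, against 2.51 to 3.19 in the other 13 libraries) and the largest share of ribosomal protein transcripts (16.5% and 17.9% of the summed FPKM, against 10.6% to 14.5%). HG2, HG3, HP5 and CON1 held the most smooth muscle transcripts, with 5428, 3376, 3217 and 1675 summed FPKM over 9 markers, against 185.1 to 798.8 in the other 11. In these bulk samples fewer cells of a type and less RNA per cell cannot be told apart.

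SLC9A3 and SLC9A2 made up most of the exchanger signal. SLC9A3 averaged 45.1 FPKM over the 15 libraries, above 89.4% of the genes tested, and SLC9A2 averaged 21.4 FPKM, above 78.8% of them. The other exchangers were low, with means of 3.003 FPKM for SLC9A8, 2.19 FPKM for SLC9A9 and 0.579 FPKM for SLC9A7. SLC9A3 stood above SLC9A2 in 13 of 15 libraries, the exceptions being CON1 and CON5, and above SLC9A8 and SLC9A9 in 15 of 15. SLC9A2 stood above SLC9A8 and above SLC9A9 in 14 of 15, with CON3 as the exception, and SLC9A7 was the lowest of the 5 in every library. SLC9A8 stood above SLC9A9 in 12 of 15 libraries, and their levels of 3.003 ± 1.096 and 2.19 ± 0.567 FPKM (SD, n = 15) overlapped.

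**Figure D1:**
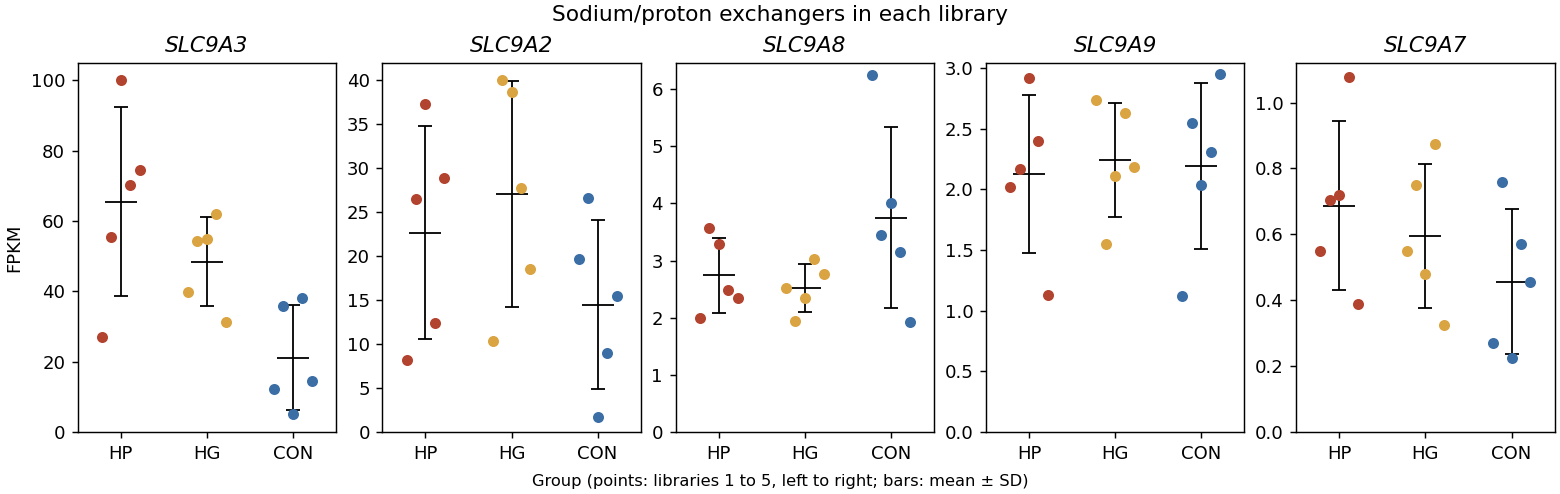
FPKM of SLC9A3, SLC9A2, SLC9A8, SLC9A9 and SLC9A7 in each of the 15 libraries, 1 panel per gene with its own scale (y, FPKM), by group (x: HP, HG, CON). Points are libraries 1 to 5 from left to right and bars are mean ± SD. SLC9A3 has 4 of 5 HP and 4 of 5 HG points above the highest CON point at 38.1 FPKM, while the points of the other genes overlap more widely.

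The question the design puts to these genes is whether the pelleted and non-pelleted high-grain diets go with different exchanger levels than the control diet, and whether they differ from each other. SLC9A3 was the exchanger with the clearest separation. It was 27.0, 55.5, 100.2, 70.3 and 74.6 FPKM in HP libraries 1 to 5, which is 65.5 ± 26.9 FPKM (SD, n = 5). It was 39.9, 54.3, 55.0, 62.0 and 31.2 FPKM in HG libraries, which is 48.5 ± 12.6 FPKM. It was 12.3, 36.0, 5.23, 38.1 and 14.4 FPKM in CON libraries, which is 21.2 ± 14.9 FPKM. Of the 10 high-grain libraries, 8 lay above the highest CON library and 10 above the CON median. HP1 and HG5 fell among the CON values, so the groups overlapped.

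Differences were fitted with limma on log2(FPKM + 1) over the 13084 genes that reached 1 FPKM in 5 or more libraries, with Benjamini-Hochberg adjustment over all of them. SLC9A7 did not pass this filter, and the other 4 exchangers did. For HG and HP together against CON, the log2 fold change of SLC9A3 was 1.60 ± 0.39 (SE; 95% interval 0.77 to 2.43), with an adjusted limma p of 0.0382, so SLC9A3 rose. Taken singly, neither diet passed the threshold of 0.05. HP against CON gave 1.77 ± 0.45 (0.81 to 2.74; limma p 0.00133, adjusted 0.0991), and HG against CON gave 1.42 ± 0.45 (0.46 to 2.39; limma p 0.00651, adjusted 0.0873). HP against HG gave 0.35 ± 0.45 (-0.61 to 1.31; adjusted limma p 0.999), an interval that holds both no difference and one of more than 1 log2 unit. All comparisons with CON use the same 5 CON libraries and are not independent of each other.

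The joint call for SLC9A3 lay near the threshold and was kept in 5 of 15 fits with 1 library left out. Without CON1 and CON3, which hold its lowest values, the joint log2 fold change was 0.95 (limma p 0.0201, adjusted 0.35). It was 1.12 for HP alone (adjusted limma p 0.51) and 0.77 for HG alone (0.458). In that setting 0 of all genes tested were called jointly, against 1282 with all libraries. The SLC9A3 value was above 0 under all 27 alternative settings of each single diet and all 26 of the joint comparison. The joint call was kept in 11 of those 26. Part of the difference was shared by most genes: the median log2 fold change of all genes tested was 0.18 in HP against CON, 0.17 in HG against CON, 0.17 in both together and 0.0052 in HP against HG. Relative to that median, SLC9A3 was higher by 1.60 in HP, by 1.25 in HG and by 1.42 in both together. With median-ratio scaling, which removes the shift, the joint value was 1.38 and the adjusted limma p 0.0405.

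**Figure D2:**
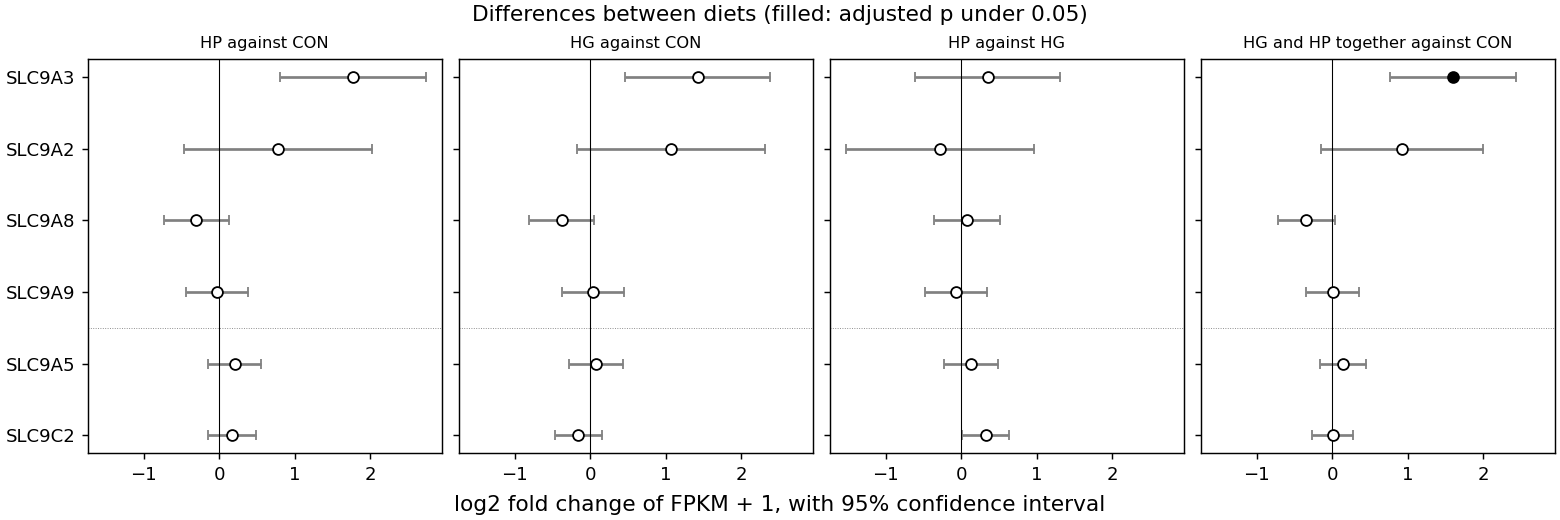
Log2 fold change of FPKM + 1 (x) with its 95% confidence interval for the 4 exchangers tested (above the dotted line) and 2 other SLC9 genes (below it), 1 panel per comparison. Filled points passed an adjusted p of 0.05. SLC9A3 at 1.60 in the joint comparison is the only filled point, and in HP against HG the intervals of all 4 exchangers span 0.

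The plot of SLC9A3 under each setting shows how far its value moved with the libraries left out.

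**Figure D3:**
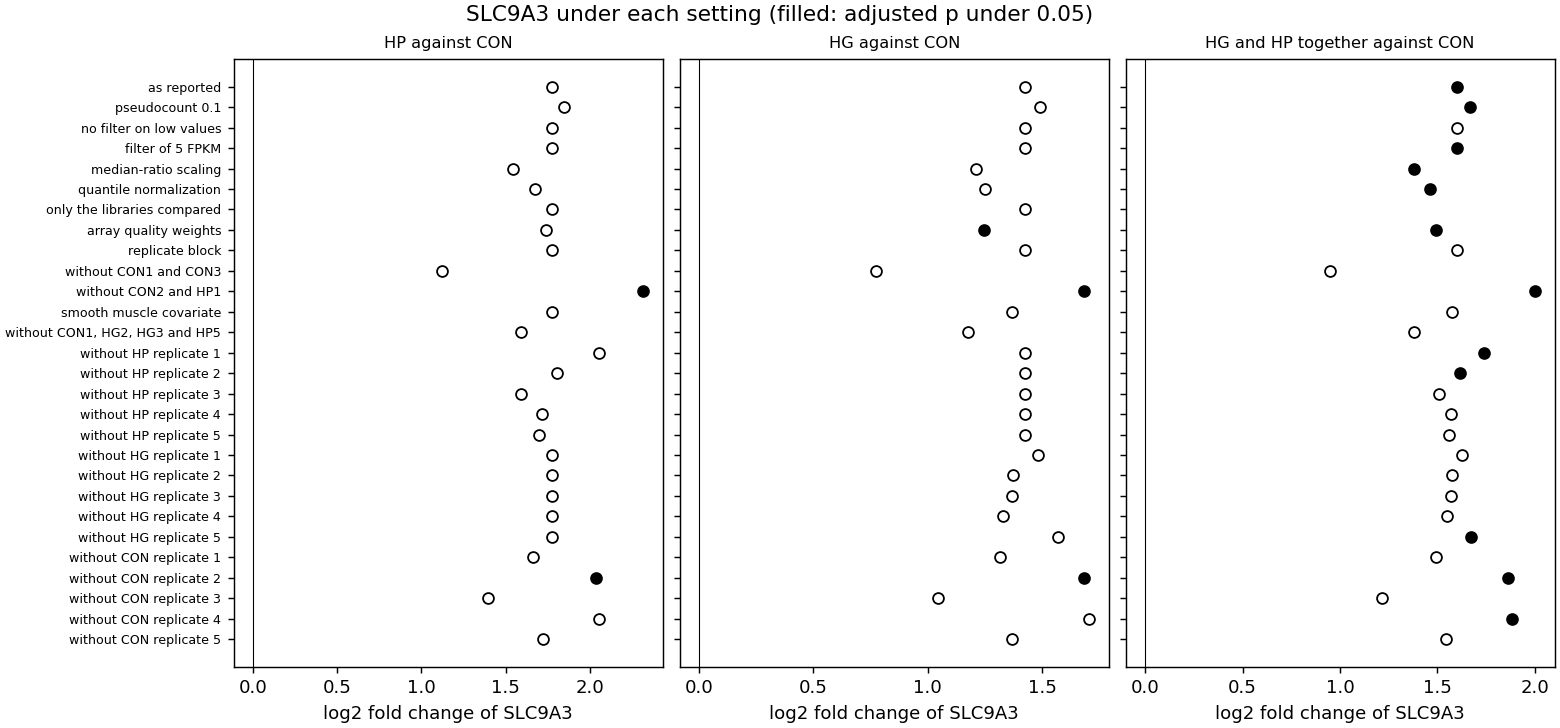
Log2 fold change of SLC9A3 (x) under each processing setting or left-out library (y), for HP against CON, HG against CON and both together against CON. Filled points passed an adjusted p of 0.05. All points lie right of 0, the lowest at 1.12, 0.77 and 0.95 without CON1 and CON3, and the joint call is filled as reported and in 11 of the 26 alternatives.

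The highest and lowest SLC9A3 values lay in libraries at the extremes of measures that set CON1 and CON3 apart. The library with the highest SLC9A3 value, HP3 at 100.2 FPKM, had the lowest ribosomal protein share (10.6%) and the highest median-ratio factor (1.12). The library with the lowest value, CON3 at 5.23 FPKM, had the highest ribosomal share (17.9%) and the lowest factor (0.687). Between these extremes, libraries with a like ribosomal share could differ. At 14.1%, SLC9A3 was 14.4 FPKM in CON5 and 39.9 FPKM in HG1. By group, the factor was 1.08 ± 0.0417 in HP, 1.06 ± 0.0387 in HG and 0.916 ± 0.15 in CON (SD, n = 5 each). The part of library composition in the SLC9A3 result was not tested beyond the values above.

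**Figure D4:**
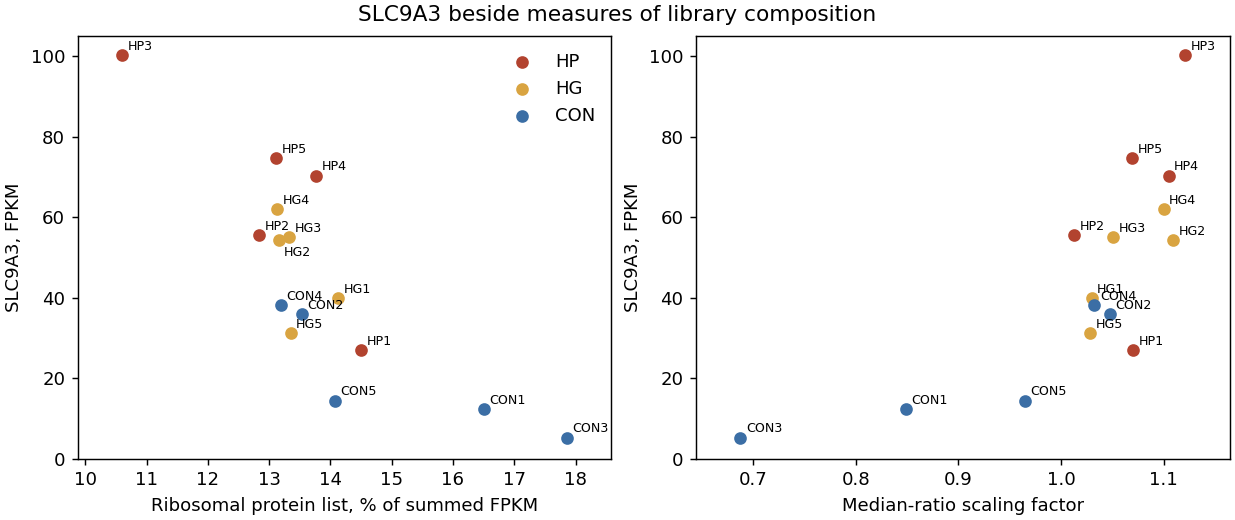
SLC9A3 level (y, FPKM) against the share of summed FPKM held by a list of ribosomal protein genes (left, x in %) and against the median-ratio scaling factor (right, x, no unit), with 1 labelled point per library and colours for HP, HG and CON. CON1 and CON3 lie apart from the other libraries in both panels, at 16.5% and 17.9% and at factors of 0.849 and 0.687.

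SLC9A2 had higher group means on both high-grain diets, and no comparison passed the test. It was 8.19, 26.5, 37.4, 12.4 and 28.9 FPKM in HP libraries 1 to 5 (22.7 ± 12.1, SD, n = 5), and 10.3, 40.0, 38.7, 27.7 and 18.6 FPKM in HG libraries (27.1 ± 12.8). It was 19.7, 26.6, 1.73, 8.99 and 15.5 FPKM in CON libraries (14.5 ± 9.58). CON3 was again the lowest library, by a wide margin, and 2 of 5 HP and 3 of 5 HG libraries lay above the highest CON library. The log2 fold change was 0.78 in HP against CON (-0.46 to 2.03; adjusted limma p 0.385), 1.07 in HG against CON (-0.18 to 2.31; 0.245) and 0.93 in both together (-0.15 to 2.01; 0.206). In HP against HG it was -0.28 (-1.53 to 0.96; adjusted limma p 0.999). Without CON3 the SLC9A2 value was 0.25 in HP against CON, 0.53 in HG against CON and 0.39 in both together.

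The highest SLC9A2 levels, 40.0 and 38.7 FPKM, were those of HG2 and HG3, the libraries with the most smooth muscle transcripts. The next, 37.4 FPKM, was that of HP3, which held 188.3 summed FPKM of these markers, close to the lowest of all libraries. HP5, with 3217, followed at 28.9 FPKM of SLC9A2, and CON1, with 1675, was at 19.7 FPKM. All 9 smooth muscle markers measured were tested, and their sum was 188.3 to 3217 FPKM in HP, 212.9 to 5428 FPKM in HG and 185.1 to 1675 FPKM in CON. None of these markers was near 0 throughout a group: DES was at 2.41 FPKM or more in HP, 2.59 FPKM or more in HG and 2.88 FPKM or more in CON. With the smooth muscle level as a covariate, the SLC9A2 value was 0.80 in HP against CON, 0.78 in HG against CON and 0.024 in HP against HG. With it SLC9A3 was 1.78 in HP against CON and 1.37 in HG against CON, close to its values without the covariate.

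Because SLC9A3 and SLC9A2 differ in level, their balance was followed within each library. SLC9A3 made up 69.8 ± 6.004% of the summed FPKM of the 5 exchangers in HP, 60.6 ± 6.995% in HG and 47.0 ± 15.7% in CON (SD, n = 5 each). The sum itself was 93.7 ± 37.9 FPKM in HP, 80.9 ± 23.2 FPKM in HG and 42.1 ± 20.9 FPKM in CON. The ratio of SLC9A3 to SLC9A2 was 2.09 to 5.67 in HP (median 2.68), 1.36 to 3.86 in HG (median 1.68) and 0.624 to 4.24 in CON (median 1.35). These ranges overlap, and no test was made of them. Together SLC9A2 and SLC9A3 held 52.6% of the sum in CON3 and 80.7% or more in each other library, up to 96.4% in HP5.

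**Figure D5:**
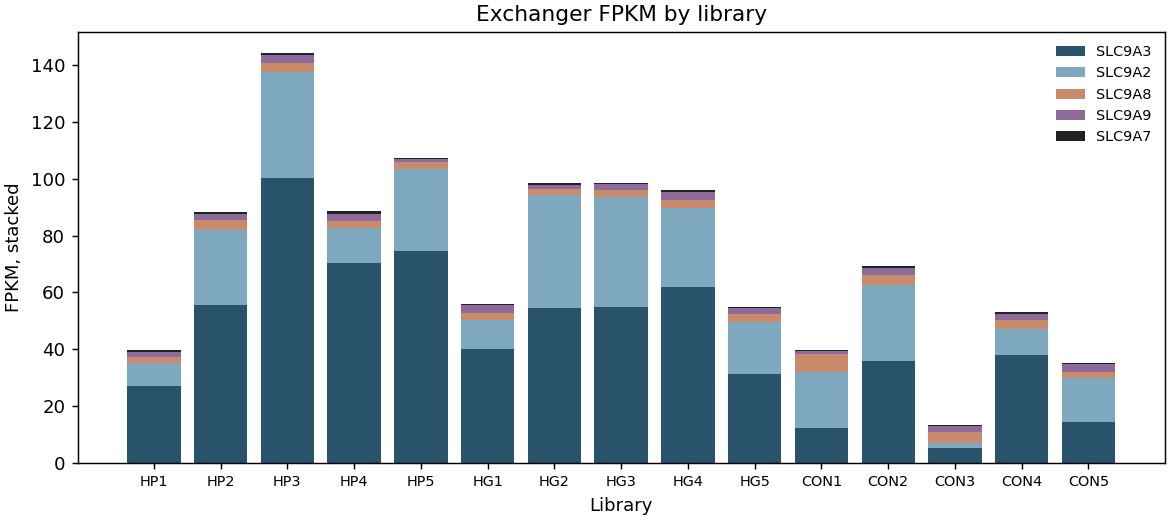
Stacked FPKM of the 5 exchangers (y) in each library (x, HP1 to HP5, HG1 to HG5, CON1 to CON5). The SLC9A3 segment is the largest in 13 of 15 bars, and the total spans 13.2 FPKM in CON3 to 144.5 FPKM in HP3.

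SLC9A8 and SLC9A9 did not share the pattern of SLC9A3. SLC9A8 was 1.999, 3.57, 3.29, 2.49 and 2.34 FPKM in HP (2.74 ± 0.663), and 2.52, 1.94, 2.34, 3.03 and 2.76 FPKM in HG (2.52 ± 0.415). It was 6.24, 3.44, 4.01, 3.15 and 1.92 FPKM in CON (3.75 ± 1.58), so the groups overlapped and its highest value was that of CON1. The log2 fold change was -0.30 in HP against CON (-0.74 to 0.13; adjusted limma p 0.338), -0.38 in HG against CON (-0.81 to 0.054; 0.238) and 0.078 in HP against HG (-0.36 to 0.51; 0.999). This value moved with the processing in both directions. Without CON1 and CON3 it was -0.033 in HP against CON and -0.11 in HG against CON. With median-ratio scaling it was -0.50 in HP against CON (adjusted limma p 0.195), -0.56 in HG against CON (0.154) and -0.53 in both together (0.0944), and with quantile normalization it was -0.55, -0.61 and -0.58 in the same comparisons (0.209, 0.148 and 0.0966).

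SLC9A9 was 2.02, 2.17, 2.91, 2.40 and 1.13 FPKM in HP (2.12 ± 0.653), and 2.74, 1.55, 2.11, 2.62 and 2.18 FPKM in HG (2.24 ± 0.471). It was 1.12, 2.54, 2.04, 2.31 and 2.95 FPKM in CON (2.19 ± 0.686), and the ranges of the groups nearly coincide. The log2 fold change was -0.028 in HP against CON (-0.44 to 0.38; adjusted limma p 0.937), 0.040 in HG against CON (-0.37 to 0.45; 0.911) and -0.068 in HP against HG (-0.48 to 0.34; 0.999). The sign against CON changed with the scaling in HG, and with quantile normalization the value was -0.28 ± 0.18 (SE) in HP against CON. SLC9A7 was 0.389 to 1.08 FPKM in HP, 0.324 to 0.873 FPKM in HG and 0.225 to 0.760 FPKM in CON, with 1 library, HP4, at or above 1 FPKM. Tested without the filter, it differed by 0.21 in HP against CON (adjusted limma p 0.374) and by 0.13 in HG against CON (0.598).

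The exchangers differed in their spread between libraries. The highest library was 23.2 times the lowest for SLC9A2 and 19.2 times for SLC9A3, against 3.24 times for SLC9A8, 2.63 times for SLC9A9 and 4.79 times for SLC9A7. CON3 gave the lowest value of SLC9A2, SLC9A3 and SLC9A7. Without it the ratio was 4.89 for SLC9A2, 8.17 for SLC9A3 and 3.999 for SLC9A7.

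Counted over the 4 exchangers tested, 1 of 4 (SLC9A3) passed the adjusted threshold in HG and HP together against CON, where 9.8% of all genes tested did (8.05% of all genes were higher). None passed in HP against CON, HG against CON or HP against HG, where 0.0153%, 0.0% and 0.0% of all genes did. At an unadjusted limma p under 0.05, SLC9A3 alone was higher in HP against CON (1 of 4; 22.6% of all genes), in HG against CON (1 of 4; 21.8%) and in both together (1 of 4; 27.7%), shares near those of all genes. With the values as deposited none of the 4 was lower in these comparisons, where 5.24%, 5.5% and 6.61% of all genes were lower. SLC9A8 was lower at an unadjusted limma p under 0.05 in HG against CON and in both together with median-ratio scaling (0.0291 and 0.0191) and with quantile normalization (0.0225 and 0.0139), and in HP against CON with quantile normalization (0.0379). In HP against HG none was higher or lower, against 1.09% and 1.02% of all genes. The median log2 fold change of the 4 exchangers was 0.38 in HP against CON, 0.55 in HG against CON, 0.47 in both together and 0.0050 in HP against HG.

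Other SLC9 genes described here were low. SLC9A5 and SLC9C2 were near 1 FPKM in all groups, and SLC9A4, SLC9B1 and SLC9B2 stayed under 0.5 FPKM in every library. SLC9A4, the exchanger of gastric parietal cells in rodents, is the next protein-coding gene to SLC9A2 in the RefSeq sheep table, and was 0.0333 to 0.130 FPKM in HP, 0.0487 to 0.212 FPKM in HG and 0.00827 to 0.114 FPKM in CON. For SLC9C2, a distant member of the family, HP against HG gave 0.33 (limma p 0.0412, adjusted 0.999).

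Partners of the exchangers at the apical membrane were next compared. Of 22 scaffolds and regulators listed, 21 were in the tables and 19 were tested, and none passed the adjusted threshold in any comparison. At an unadjusted limma p under 0.05, 6 of the 19 were higher and 1 lower in HP against CON (22.6% and 5.24% of all genes), and 8 higher and 1 lower in HG against CON (21.8% and 5.5%). In both together 10 were higher and 1 lower (27.7% and 6.61%), and in HP against HG 0 were higher and 1 lower (1.09% and 1.02%). The list's median log2 fold changes for HP against CON, HG against CON, both together and HP against HG, at 0.32, 0.37, 0.30 and -0.021, stand beside the 0.18, 0.17, 0.17 and 0.0052 of all genes tested.

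PRKACA, the catalytic subunit of the cyclic AMP-dependent kinase that inhibits NHE3, was 14.9 ± 1.97 FPKM in HP, 15.8 ± 1.25 FPKM in HG and 10.8 ± 3.28 FPKM in CON, with a log2 fold change of 0.56 in HG against CON (adjusted limma p 0.0904). RDX (radixin), a linker to the actin cortex, was 10.99 ± 4.25 FPKM in HP, 10.7 ± 2.74 FPKM in HG and 6.56 ± 2.06 FPKM in CON. NHERF1, the PDZ scaffold that ties NHE3 to the cortex, was abundant at 148.2 ± 24.1 FPKM in HP, 165.8 ± 18.2 FPKM in HG and 128.9 ± 21.7 FPKM in CON (0.37 in HG against CON; adjusted limma p 0.127). SGK1, a kinase that stimulates NHE3, was 30.4 ± 6.45 FPKM in HP, 30.1 ± 4.33 FPKM in HG and 20.8 ± 8.71 FPKM in CON (0.60 in HP against CON; adjusted limma p 0.136). In HP against HG the lower gene was EZR (ezrin), at 23.9 ± 3.25 FPKM in HP and 55.5 ± 27.2 FPKM in HG (-1.03; limma p 0.042, adjusted 0.999).

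Of 13 apical partners for sodium and acid, 12 were tested and none passed the adjusted threshold in any comparison. At an unadjusted limma p under 0.05, 3 of the 12 were higher and 1 lower in HP against CON (22.6% and 5.24% of all genes), and 1 was higher and 0 lower in HG against CON (21.8% and 5.5%). In both together 3 were higher and 0 lower (27.7% and 6.61%), and in HP against HG 0 were higher and 1 lower (1.09% and 1.02%). The anion exchanger SLC4A2 was 22.3 ± 2.44 FPKM in HP, 20.0 ± 3.13 FPKM in HG and 16.0 ± 2.98 FPKM in CON (0.47 in HP against CON; adjusted limma p 0.0991). Its relative SLC4A9 was 17.1 ± 3.56 FPKM in HP, 15.6 ± 2.29 FPKM in HG and 11.6 ± 3.95 FPKM in CON (0.55 in HP against CON; adjusted limma p 0.113). CA4, a membrane-bound carbonic anhydrase, was 3.31 ± 1.40 FPKM in HP, 5.01 ± 0.408 FPKM in HG and 4.88 ± 1.44 FPKM in CON (-0.53 in HP against HG; limma p 0.0184, adjusted 0.999).

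Endosomal and Golgi pH genes, the setting of SLC9A7, SLC9A8 and SLC9A9, gave 2 of 14 tested genes past the adjusted threshold in HG and HP together against CON, beside 9.8% of all genes, and none in the other comparisons. CLCN3, an endosomal chloride/proton exchanger, was 31.9 ± 5.66 FPKM in HP, 31.4 ± 2.40 FPKM in HG and 16.3 ± 8.48 FPKM in CON, and rose by 1.07 ± 0.25 on the log2 scale (adjusted limma p 0.0382). ATP6V0A1, a membrane subunit of the vacuolar proton pump, was 31.0 ± 5.71 FPKM in HP, 29.0 ± 4.20 FPKM in HG and 19.0 ± 4.87 FPKM in CON, and rose by 0.66 ± 0.16 (adjusted limma p 0.0382). Each of these calls was kept in 11 of 26 alternatives. Without CON1 and CON3 the joint value was 0.54 for CLCN3 and 0.51 for ATP6V0A1 (adjusted limma p 0.326 for each), and with median-ratio scaling it was 0.85 and 0.43. At an unadjusted limma p under 0.05, 3 of the 14 were higher and 1 lower in HP against CON (22.6% and 5.24% of all genes), and 3 were higher and 2 lower in HG against CON (21.8% and 5.5%). In both together 3 were higher and 0 lower (27.7% and 6.61%), and in HP against HG 1 was higher and 1 lower (1.09% and 1.02%). CLCN7, the lysosomal chloride/proton exchanger, was the lower gene in HP, at 12.2 ± 5.01 FPKM in HP, 18.5 ± 3.58 FPKM in HG and 19.3 ± 1.999 FPKM in CON (-0.69 against CON; adjusted limma p 0.0993). TMEM165 and GPR89A, both linked to Golgi pH, were the lower genes in HG against CON (-0.50 and -0.35; adjusted limma p 0.165 and 0.146).

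Markers of cell types also differed between the groups in which SLC9A3 differed. Of 10 basal keratinocyte markers tested, 3 (COL17A1, LAMB3 and DST) passed the adjusted threshold in HG and HP together against CON. All 3 were higher, beside 8.05% of all genes that passed as higher. At an unadjusted limma p under 0.05, 7 of the 10 were higher in HP against CON (22.6% of all genes) and 7 in HG against CON (21.8%). The summed level of the list was 1907 to 4676 FPKM in HP, 2973 to 4334 FPKM in HG and 2634 to 4120 FPKM in CON, and the keratins KRT5, KRT14 and KRT15 did not pass the test. In the same joint comparison 2 of 13 suprabasal keratinocyte and 1 of 8 fibroblast markers passed as higher. As lower, 1 of 10 macrophage markers and 7 of 39 ribosomal protein genes passed, beside 229 of all 13084 genes tested. None of the 9 smooth muscle, 8 endothelial or 7 T and NK cell markers tested passed. The part of these cell types in the SLC9A3 result was not tested, other than that of smooth muscle by the covariate given above, with which the joint value was 1.57 and the adjusted limma p 0.0563.

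Genes with the pattern most like each exchanger were taken as the 5 with the highest Pearson r of log2(FPKM + 1) over the 15 libraries, among 6940 named genes whose mean was 5 FPKM or more. The points share library composition and depth, and r is given as a description. For SLC9A3 these were PDZD2 (a PDZ domain protein, r = 0.973), BTBD7 (0.969), SRRM2 (a splicing scaffold, 0.968), TPCN1 (an endolysosomal cation channel, 0.968) and HECTD4 (0.967). Within groups, after centring, their r remained 0.929 to 0.963. Such likeness was common, since 363 of 6939 genes reached r = 0.9 with SLC9A3. For SLC9A2 the genes of the 5 given here were PRKACA (0.862), MICAL3 (0.859), ARHGEF18 (0.851) and VPS37B (0.848), and 0 genes reached 0.9. For SLC9A8 the closest gene was MRPS28, a mitochondrial ribosomal protein (0.750), and for SLC9A9 it was SFRP1, a secreted WNT antagonist (0.774).

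PDZD2, the closest to SLC9A3, was 9.99 ± 2.88 FPKM in HP, 7.82 ± 1.29 FPKM in HG and 4.87 ± 3.03 FPKM in CON. It was picked for its likeness over these same libraries, so these levels are a description.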

How the data were processed

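The authors deposited 1 table of FPKM per library, per the file headers. The submitters' processing notes list the tools HISAT2 and StringTie 1.3.4d without saying what each did. No source used here gives the genome build, the annotation or any filter. Low values did not fall into whole-read steps (the commonest ratio between 2 libraries held 1.17% to 1.95% of low genes), so no counts were recovered, depth is unknown and no count test was run. Of the 19304 genes, 1933 were named by a gene number, and 346 of these were given a symbol through RefSeq (sheep assembly ARS-UI_Ramb_v3.0), used for names and neighbours only.

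The 13084 genes that reached 1 FPKM in 5 or more libraries were tested two-sided with limma 3.58.1 (R 4.3.3; trended and robust empirical Bayes, statmod 1.5.0) on log2(FPKM + 1), which understates changes of low genes. All 15 libraries entered 1 model of 3 group means without covariates, with Benjamini-Hochberg adjustment over all genes tested. The fit was tested on simulated data with independent noise for each gene. That simulation held no shift shared by the genes of a library, so it does not show how the fit behaves under one. Exchangers and gene lists were chosen with earlier results of these data known. Besides the 5 exchangers, each list gave its genes past the threshold, or up to 4 with the smallest p, and each exchanger its 5 most similar genes. TMEM165 and SLC9A4 were also named after their values were seen. Some genes of these lists are not reported here. Alternatives changed the pseudocount, filter, scaling, weights, libraries and covariates.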

Additional observations from a re-analysis of the deposited data

How the results depend on the processing

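Over the 5 exchangers and 4 comparisons, 465 of 515 alternative values counted as kept. For SLC9A2, SLC9A3, SLC9A8 and SLC9A9 this meant the same direction and side of the threshold. For SLC9A7, which did not pass the filter, it meant a move smaller than its SD within groups. One such SLC9A7 value, in HG against CON without CON1 and CON3, was -0.0062, against 0.13 as reported. Most of the kept values belonged to results that were not called as reported and stayed uncalled. The only called result, SLC9A3 in HG and HP together against CON, was kept in 11 of 26 alternatives. SLC9A3 kept its direction in all of its alternatives. For HG and HP together against CON its adjusted limma p was 0.0526 with no filter, 0.0563 with the smooth muscle covariate (1.57), 0.35 without CON1 and CON3 (0.95) and 0.287 without CON1, HG2, HG3 and HP5 (1.38), a setting chosen after seeing the data. With 1 library left out it was 1.22 to 1.88, and the call was lost without CON1, CON3, CON5, HG1, HG2, HG3, HG4, HP3, HP4 or HP5. SLC9A3 became a call in HG against CON with array weights (1.25, adjusted limma p 0.0462) and without CON2 and HP1 (1.69; 0.0193), and in HP against CON without CON2 and HP1 (2.32; 0.00948). Left-out libraries gave 1.04 to 1.71 in HG (a call without CON2) and 1.39 to 2.06 in HP (a call without CON2).

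SLC9A9 changed sign in HG against CON with median-ratio scaling (-0.11), quantile normalization (-0.21), array weights (-0.076) and without CON1 and CON3 (-0.16), and in the joint comparison under these (-0.15, -0.24, -0.12 and -0.19) and without CON1, HG2, HG3 and HP5 (-0.0049). In HP against CON it was 0.023 without CON2 and HP1. Left-out libraries gave -0.10 to 0.12 in HG, -0.17 to 0.10 in HP, -0.13 to 0.090 jointly and -0.16 to 0.064 in HP against HG. SLC9A2 in HP against HG was 0.011 without CON2 and HP1, 0.024 with the covariate and 0.034 without CON1, HG2, HG3 and HP5 (left-out libraries: -0.57 to 0.011). SLC9A7 at a pseudocount of 0.1 was 0.54 in HP, 0.36 in HG and 0.45 jointly. The causes were not tested.

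Genes called among all tested depended on the setting. In HG against CON (0) there were 1 with a filter of 5 FPKM or only the libraries compared, 868 with weights, 2563 without CON2 and HP1, and 0 to 2218 with 1 library left out. In HP against CON (2) there were 1 with the small pseudocount, no filter or without CON1, HG2, HG3 and HP5, 7 with only the libraries compared, 0 with weights or without CON1 and CON3, 3163 without CON2 and HP1, and 0 to 2171 with 1 left out. In HP against HG (0) there was 1 without CON1, HG2, HG3 and HP5, and 0 to 1 with 1 left out. Jointly (1282) there were 2 with no filter or the covariate, 628 with quantile normalization, 0 without CON1 and CON3, 4063 without CON2 and HP1, 1 without CON1, HG2, HG3 and HP5, and 0 to 3520 with 1 left out. Of the joint calls 1053 were higher and 229 lower, against 425 and 523 with median-ratio scaling and 305 and 323 with quantile normalization.

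Deviations from the group mean correlated at -0.199 to 0.293 between same-numbered libraries, above 0.1 in 3 of 15 pairs. In all, 4 of 15 libraries correlated best with their own number. These values cannot show whether replicate numbers pair the libraries by design. With the replicate block the joint SLC9A3 value was 1.60 (adjusted limma p 0.0603), and 1 gene was called jointly and 1 in HP against CON.

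The joint fit on only the libraries compared is the fit reported. SLC9A8 and SLC9A9 gave no value under the filter of 5 FPKM. SLC9A7 gave none under quantile normalization, array weights or the smooth muscle covariate. Apart from the setting with no filter, its values were plain differences of group means without a test. Depth is unknown, so counting error could not be given.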
